A study of Homo sapiens with 12 samples.

Results

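Plasma cell identity is held by a small set of transcription factors, and 10 genes around that set were followed through the study: IRF4, PRDM1, POU2AF1, POU2F2, MYC, IKZF1, IKZF3, CRBN, PAX5 and BCL6. They were taken by symbol from the table of raw counts and are 10 of its 43735 genes. Each symbol had 1 entry. EdgeR's filter on low counts kept 9 of the 10 for testing, and PAX5 did not pass it.

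RNA was sequenced from MM1S and MM1R cells, sister lines of multiple myeloma from the same patient, of which MM1S is sensitive and MM1R resistant to glucocorticoids, with no further engineered change named for either. Each line was left untreated (UT) or exposed to 1 µM withaferin A (WA), a steroidal lactone of the plant Withania somnifera, for 3 h. The 4 groups held 3 cultures each, of passage 16, 22 and 23 for MM1S and passage 4, 6 and 7 for MM1R, all grown in the same serum-supplemented medium, and no vehicle is named for the untreated cultures. Since each phenotype is represented by 1 line and the lines share no passage number, resistance, line and passage cannot be told apart. Gene counts summed to 17625110 to 19368343 per culture (median 18555625), of which the 10 genes took 0.20% to 0.356%. All 6 plasma cell markers (SDC1, TNFRSF17, CD38, MZB1, SLAMF7 and XBP1) were expressed, with a summed level of 3620 to 4650 CPM (the reads of a gene scaled to library size) across cultures. All 4 B-cell markers and all 3 NK-cell markers stayed at or under 3 reads in every culture, and summed T-cell, myeloid, epithelial and stromal or endothelial markers reached at most 11.9, 0.669, 1.49 and 31.8 CPM. Of the 4 stromal or endothelial markers COL1A1 rose with WA, by 2.46 on the log2 scale in MM1R (adjusted p = 0.0039 by edgeR) and 2.78 in MM1S (adjusted p = 0.0045). PECAM1, the highest of the 4, went the other way, from 20.4 to 16.5 CPM on average in MM1R and from 20.6 to 16.3 CPM in MM1S. COL1A2 was listed at 0 reads and VWF at 0 to 13. The sum of the 4 was 14.5 to 25.2 CPM without and 16.3 to 24.7 CPM with WA in MM1S, and 18.8 to 24.4 and 23.0 to 31.8 CPM in MM1R. The part of such cells in the results was not tested.

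When a B cell becomes an antibody-secreting plasma cell, IRF4 and PRDM1 (BLIMP-1) come to dominate and repress the B-cell factors PAX5 and BCL6, which in turn repress PRDM1 in germinal-centre cells. POU2F2 (OCT2) and its coactivator POU2AF1 (OCA-B) bind the octamer element of immunoglobulin promoters. Myeloma cells depend on IRF4 and on MYC, each of which is known to act on the gene of the other. CRBN (cereblon) is the substrate receptor of a CUL4 ubiquitin ligase, to which thalidomide-type drugs recruit the zinc-finger factors IKZF1 (Ikaros) and IKZF3 (Aiolos) for degradation, and a lower IRF4 level follows. These protein-level steps were not measured here.

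Sequence before the transcription start is shown for the members whose RNA passed a test in at least 1 comparison (IRF4, BCL6 and POU2F2) and for PRDM1, which holds one of only 2 motif matches. Sequences are from RefSeq on GRCh38.p14, which listed 12 starts for 7 of the 10 genes, and each run below gives the 250 bases before a start, 5′ to 3′ on the strand of the gene. The 8 motifs searched, on both strands, were GAANNTTC (heat shock element), CACGTG (E-box of MYC and its partners), ATGCAAAT (octamer), TTCNNNGAA (STAT and BCL6 type), TGACNNNGC (NRF2 type), an interferon-type repeat (GAAA, any 2 bases, GAAA), an ETS and IRF composite (GGAA, any 2 bases, GAAA) and an NF-kB type site (GGG, any 3 bases, TTCC). Matches of different motifs could overlap.
IRF4, chr6:391502-391751, plus strand: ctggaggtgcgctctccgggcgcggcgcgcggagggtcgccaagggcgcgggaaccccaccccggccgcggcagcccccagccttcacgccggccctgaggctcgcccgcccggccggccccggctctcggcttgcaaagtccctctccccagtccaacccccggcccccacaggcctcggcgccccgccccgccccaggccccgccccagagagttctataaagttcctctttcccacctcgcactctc
BCL6, chr3:187736502-187736751, minus strand: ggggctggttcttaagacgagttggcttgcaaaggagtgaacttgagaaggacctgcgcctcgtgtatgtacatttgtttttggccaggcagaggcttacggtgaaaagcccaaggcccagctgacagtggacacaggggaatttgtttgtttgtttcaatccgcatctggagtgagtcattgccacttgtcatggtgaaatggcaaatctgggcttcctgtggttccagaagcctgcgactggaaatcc
BCL6, chr3:187745469-187745718, minus strand: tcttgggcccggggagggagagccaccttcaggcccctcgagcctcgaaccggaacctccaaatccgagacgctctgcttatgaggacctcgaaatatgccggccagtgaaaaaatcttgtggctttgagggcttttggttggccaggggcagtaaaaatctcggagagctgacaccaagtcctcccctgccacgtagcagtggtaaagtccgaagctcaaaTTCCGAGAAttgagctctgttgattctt
PRDM1, chr6:106086086-106086335, plus strand: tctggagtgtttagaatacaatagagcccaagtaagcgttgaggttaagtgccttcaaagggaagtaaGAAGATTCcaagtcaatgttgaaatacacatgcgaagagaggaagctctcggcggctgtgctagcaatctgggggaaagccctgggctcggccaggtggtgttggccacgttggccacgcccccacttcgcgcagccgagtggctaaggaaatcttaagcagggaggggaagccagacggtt
POU2F2, chr19:42132447-42132696, minus strand: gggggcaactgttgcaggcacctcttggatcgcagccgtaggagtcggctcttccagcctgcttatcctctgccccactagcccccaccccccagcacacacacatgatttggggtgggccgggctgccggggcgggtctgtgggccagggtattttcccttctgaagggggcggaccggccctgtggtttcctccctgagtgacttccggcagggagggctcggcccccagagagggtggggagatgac
Capitals mark a motif match. The run of PRDM1 holds GAAGATTC, a match to the heat shock motif that begins 182 bases before the start. This motif was found in 5.78% of the 35116 human promoters of the same table. The upstream run of BCL6 holds TTCCGAGAA, of the STAT and BCL6 type, 28 bases before the start, a motif found in 6.57% of them. The other 10 starts held none of the 8, whose shares among all promoters lay between 1.63% and 10.9%. A match describes letters in these windows and no binding was measured.

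In untreated cells the identity genes were among the well expressed members, whereas PAX5 and BCL6 were near or at the floor. Per kilobase of the GENCODE transcript, the mean level in untreated MM1R was 210 CPM per kb for IRF4, 189 for POU2AF1, 184 for MYC and 92.4 for PRDM1. IKZF1 and IKZF3 followed with 32.5 and 25.1 CPM per kb, CRBN with 9.002, POU2F2 with 6.47 and BCL6 with 0.416. In untreated MM1S the same scale gave 193 for IRF4, 184 for POU2AF1, 166 for MYC, 81.4 for PRDM1, 33.1 for IKZF1, 19.0 for IKZF3, 9.22 for CRBN, 2.47 for POU2F2 and 0.393 CPM per kb for BCL6. PAX5, the factor that commits cells to the B lineage, had 0 to 3 reads in each of the 12 cultures, which is at the floor of 3 reads used here, so that neither a fold change nor a test is given for it. Low entries need care in this table, since LDHA (0 to 4 reads), FBL (1 to 7), EIF4A1 (0) and NEDD8 (0) are genes every cell uses, and for a gene with few reads only its listed count can be given.

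**Figure D1:**
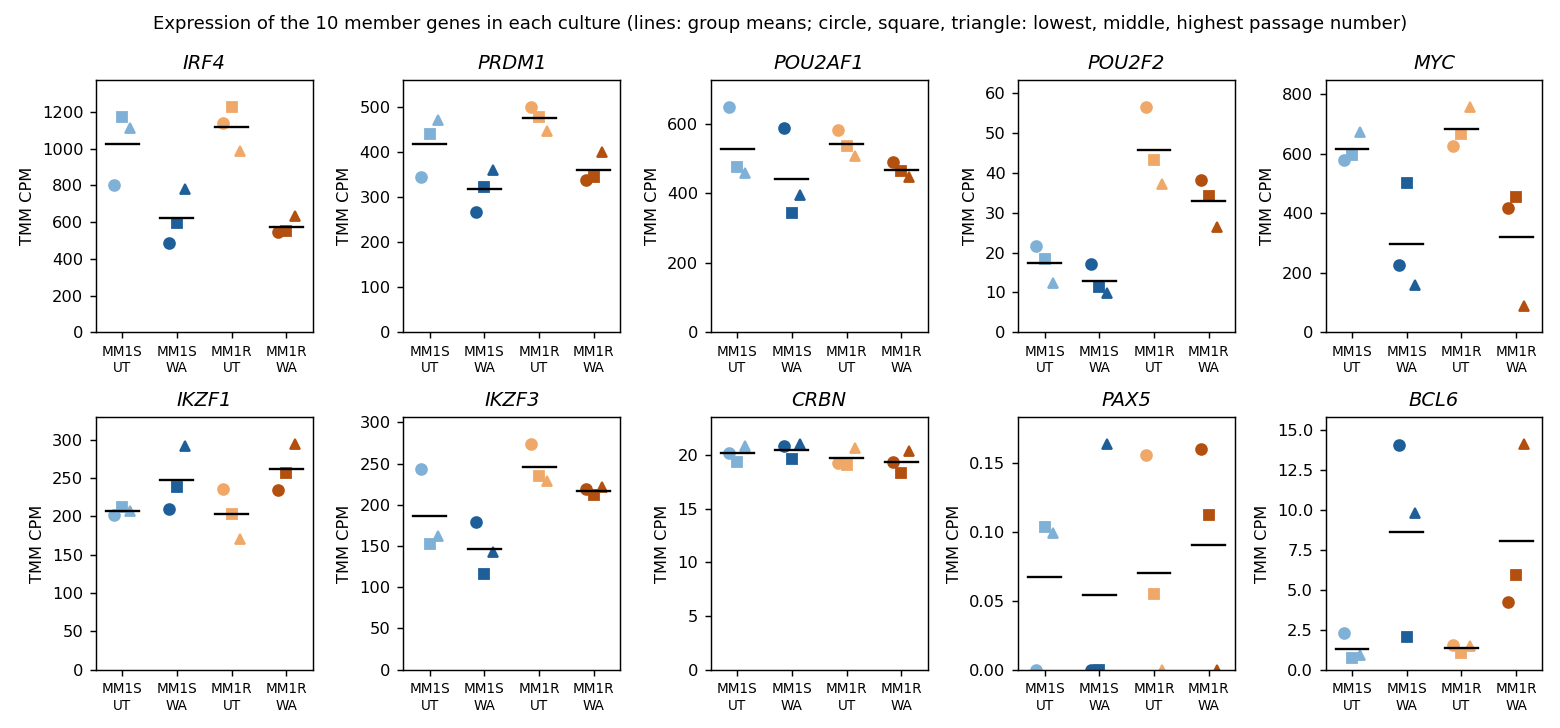
Level of each of the 10 genes in every culture, as TMM-scaled CPM on a linear axis from 0, by line and treatment, with a horizontal line at each group mean and a circle, square or triangle for the lowest, middle or highest passage number. IRF4 is lower and BCL6 is mostly higher with WA in both lines, POU2F2 is set apart by line, CRBN stays between 18.3 and 21.0 CPM, and PAX5 never exceeds 3 reads.

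IRF4, the factor that myeloma cells are known to depend on, fell with WA in both lines. In MM1R its level was 1138, 1228 and 986 CPM in untreated cultures of passage 4, 6 and 7, and 547, 549 and 631 CPM with WA. In MM1S it was 801, 1171 and 1112 CPM in untreated cultures of passage 16, 22 and 23, and 488, 594 and 779 CPM with WA. The groups did not overlap in either line, although the untreated passage 16 culture of MM1S (801 CPM) lay close to the highest WA culture (779 CPM). The log2 fold change was -0.96 (SE 0.18, 95% interval -1.34 to -0.58) in MM1R with an adjusted p of 0.0032 by edgeR, and the call was kept when any of the 12 libraries was left out. In MM1S it was -0.73 (SE 0.18, interval -1.11 to -0.35) with an adjusted p of 0.019 by edgeR, and there the call was lost without untreated passage 22 (adjusted p = 0.087), untreated passage 23 (0.075) or WA passage 16 (0.067), and when only the 6 MM1S libraries were fitted (0.060). In bulk RNA, fewer cells expressing a gene and less RNA per cell cannot be told apart. The gene lies at chr6:391739-411443 on the plus strand (GRCh37, 9 exons).

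BCL6, the germinal-centre repressor that plasma cells normally keep off, rose from a level near the floor. Untreated MM1R cultures had 1.56, 1.04 and 1.52 CPM at passage 4, 6 and 7, and those with WA 4.21, 5.91 and 14.1 CPM. Untreated MM1S cultures had 2.28, 0.723 and 0.895 CPM at passage 16, 22 and 23, and those with WA 14.1, 2.03 and 9.83 CPM. The groups were separate in MM1R, while in MM1S the WA culture of passage 22 lay below the untreated culture of passage 16, so that the groups overlapped although each pair of the same passage rose. These values rest on 14 to 260 reads per culture. The log2 fold change was 2.55 (SE 0.64, interval 1.16 to 3.93) in MM1R with an adjusted p of 0.018 and 2.73 (SE 0.64, interval 1.35 to 4.11) in MM1S with an adjusted p of 0.016, both by edgeR. The MM1R call was lost without untreated passage 6 (adjusted p = 0.078), untreated passage 7 (0.059) or WA passage 7 (0.085), and the MM1S call without untreated passage 22 (0.076), untreated passage 23 (0.072) or WA passage 16 (0.059). At its highest, 14.1 CPM, BCL6 RNA remained far under the 88.5 CPM of the lowest MYC culture and the 488 CPM of the lowest IRF4 culture. BCL6 lies at chr3:187439165-187463513 on the minus strand (GRCh37), and 6.96% of its exon bases are shared with 2 antisense transcripts, which counting without strand could not separate.

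These were the only members called for WA in the main edgeR fit, which had no passage term. In MM1R 2 of 9 tested members were called, 1 higher and 1 lower, where 14.0% of all 14085 tested genes were called (7.55% higher and 6.46% lower). In MM1S it was again 2 of 9, against 10.5% of all genes (6.25% higher and 4.23% lower). Both genes moved the same way in both lines, which 8.55% of all genes did (4.96% higher and 3.59% lower). The median log2 change of the tested members was -0.21 in MM1R and -0.35 in MM1S, beside 0.01 and 0.02 for all tested genes.

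**Figure D2:**
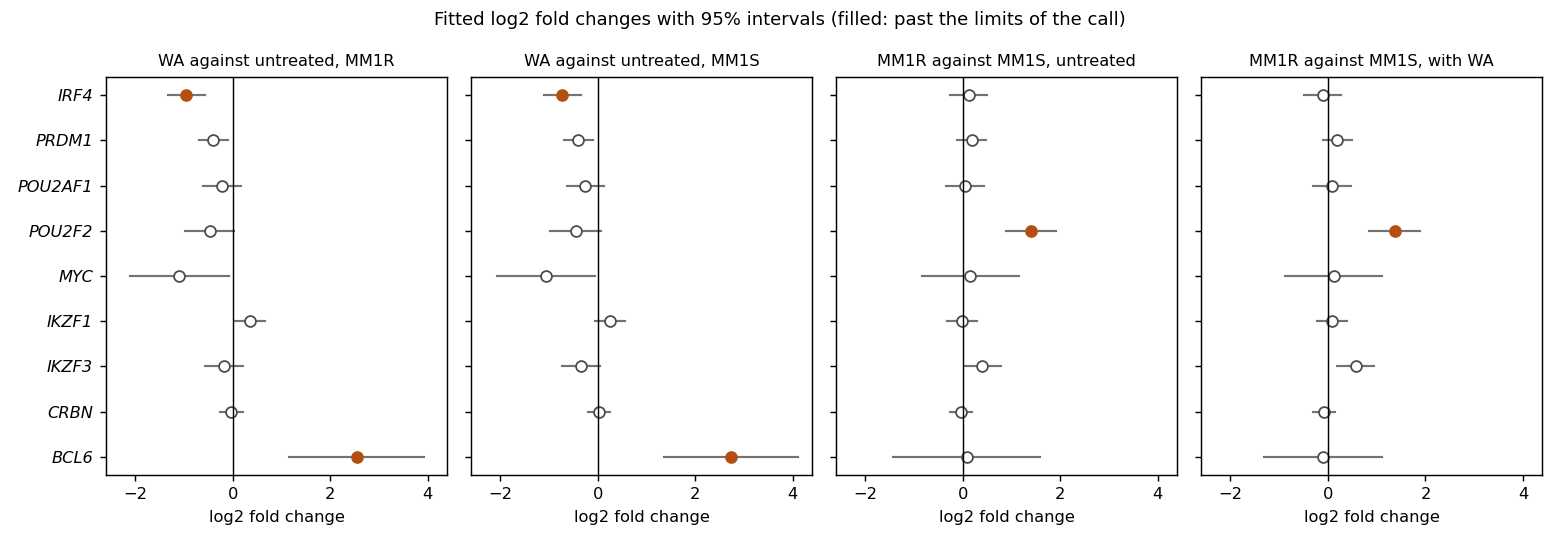
Fitted log2 fold changes (x axis) of the 9 tested genes with their 95% intervals, for WA in MM1R, WA in MM1S, and MM1R against MM1S without and with WA, filled where the limits of the call were passed. IRF4 and BCL6 are filled in both WA panels, at -0.96 and 2.55 in MM1R and -0.73 and 2.73 in MM1S, and POU2F2 is filled in both line panels, at 1.39 and 1.37.

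With passage number as a replicate block, which compares the untreated and the WA culture of each passage, 6 of 9 members were called in MM1R (2 higher and 4 lower), against 29.1% of all genes (14.7% higher and 14.4% lower), and 7 of 9 in MM1S (1 higher and 6 lower), against 24.1% (12.5% higher and 11.7% lower). IRF4 and BCL6 were among them in both lines, with adjusted p of 7.3e-05 and 0.00025 in MM1R and 0.00049 and 0.00015 in MM1S by edgeR. MYC, PRDM1 and POU2F2 were called lower in both lines, IKZF1 higher in MM1R, and POU2AF1 and IKZF3 lower in MM1S. Without regard to passage, the CPM of treated and untreated cultures did not overlap for 6 members in MM1R, 1 higher and 5 lower, where this held for 33.3% of all tested genes (17.3% higher and 16.0% lower). In MM1S it held for 2 members, both lower, against 30.3% (16.4% higher and 13.9% lower).

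**Figure D3:**
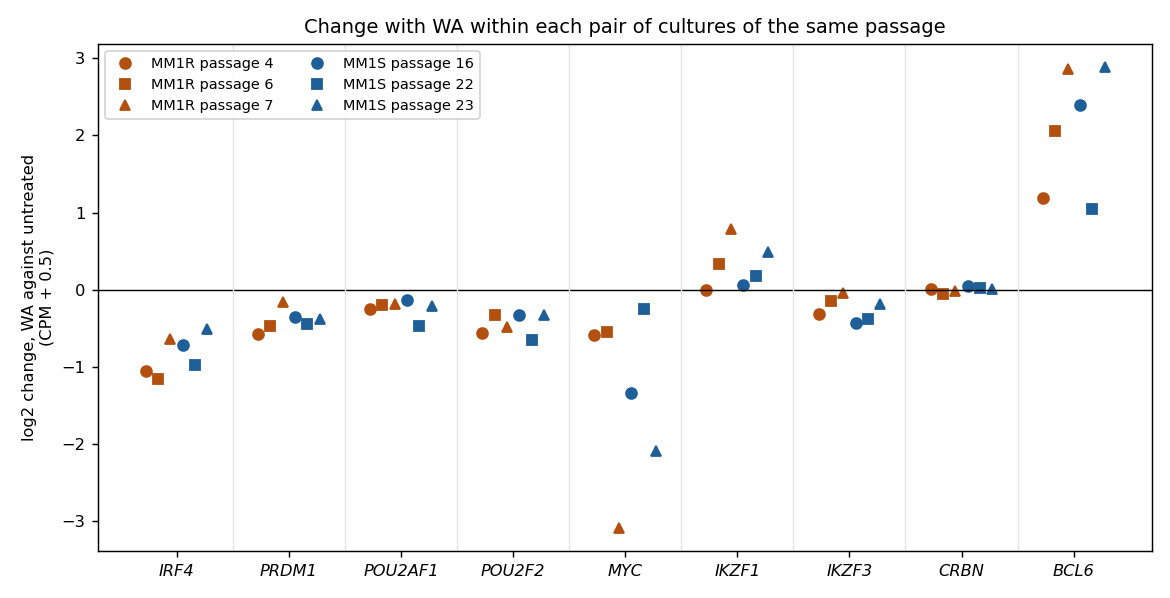
Log2 change of each tested gene, WA against the untreated culture of the same line and passage (y axis, from CPM with 0.5 added), for the 3 pairs of MM1R and the 3 pairs of MM1S. IRF4, PRDM1, POU2AF1, POU2F2, MYC and IKZF3 are below 0 in 6 of 6 pairs, BCL6 is above 0 in 6 of 6 pairs, and CRBN stays between -0.06 and 0.05.

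MYC, the growth-promoting factor often activated in myeloma, was lower with WA in every pair but by very different amounts. In MM1R its level was 627, 666 and 758 CPM in untreated cultures of passage 4, 6 and 7, and 418, 456 and 88.5 CPM with WA. In MM1S it was 579, 597 and 674 CPM in untreated cultures of passage 16, 22 and 23, and 228, 502 and 158 CPM with WA. Every WA culture lay below every untreated culture of its line, and the drop ranged from 0.25 at passage 22 of MM1S to 3.09 at passage 7 of MM1R on the log2 scale. Its log2 fold change was -1.09 in MM1R (SE 0.47, interval -2.10 to -0.08, adjusted p = 0.14 by edgeR) and -1.06 in MM1S (SE 0.47, interval -2.07 to -0.05, adjusted p = 0.18), so that neither passed the limit without the block. With the block it was -1.35 (adjusted p = 0.034) and -1.23 (adjusted p = 0.049) by edgeR, while DESeq2 with the same block did not call it in either line. Leaving out WA passage 7 of MM1R changed the fold change there to -0.62, and leaving out WA passage 22 of MM1S gave -1.68 in MM1S with an adjusted p of 0.041. Without WA passage 7 of MM1R the adjusted p of MYC in MM1S was 0.040. MYC lies at chr8:128747680-128755197 on the plus strand (GRCh37), and the antisense CASC11 that covers 5.21% of its exon bases had 0 to 2 reads.

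The sizes of the MYC, BCL6 and IRF4 changes differed between the 6 pairs, in a pattern described after the values were seen. The 3 pairs with the largest MYC decreases, passage 7 of MM1R (-3.09), passage 23 of MM1S (-2.09) and passage 16 of MM1S (-1.35), were the 3 in which BCL6 rose most, by 2.86, 2.89 and 2.39. The same 3 pairs had the smallest IRF4 decreases, -0.64, -0.51 and -0.71, whereas in the other pairs IRF4 was at -1.06, -1.16 and -0.98 and MYC at -0.58, -0.55 and -0.25. IKZF1 had its largest changes at passage 7 of MM1R (0.78) and passage 23 of MM1S (0.49), but at passage 16 of MM1S it was at 0.06, below passage 6 of MM1R (0.34) and passage 22 of MM1S (0.17). Over 12322 genes the log2 changes had an SD of 0.644 at passage 7 of MM1R and 0.525 and 0.515 at passages 16 and 23 of MM1S, against 0.415 to 0.472 in the other pairs, so that changes over all genes were also more spread there. The part of this wider spread in the pattern was not tested.

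**Figure D4:**
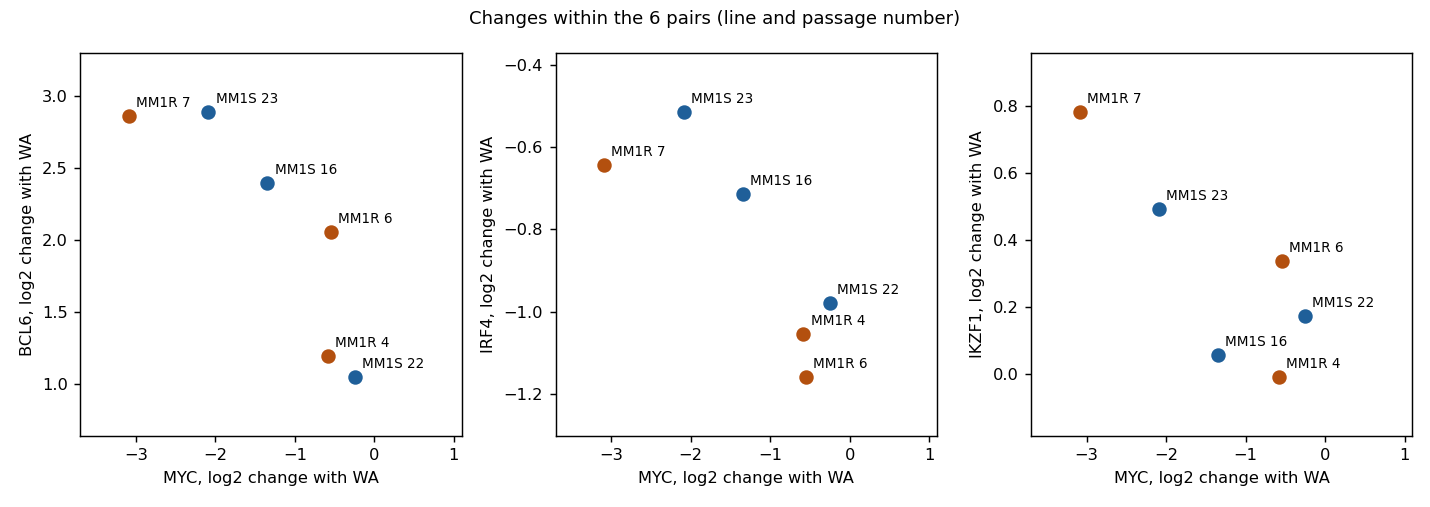
Log2 change of MYC (x axis) against that of BCL6, IRF4 and IKZF1 (y axes) within each of the 6 pairs of cultures, labelled by line and passage. The pairs at the left, with MYC at -3.09, -2.09 and -1.35, have the largest BCL6 increases and the smallest IRF4 decreases.

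PRDM1, the repressor that closes the B-cell programme, was lower with WA in 6 of 6 pairs, by 0.16 to 0.57 on the log2 scale. In MM1R it had 501, 479 and 447 CPM in untreated cultures of passage 4, 6 and 7 and 337, 346 and 402 CPM with WA. In MM1S it had 344, 441 and 471 CPM in untreated cultures of passage 16, 22 and 23 and 268, 324 and 361 CPM with WA. The groups were separate in MM1R and overlapped in MM1S, where passage 16 had the lowest level of either group. With log2 fold changes of -0.40 in both lines (SE 0.14), the adjusted p was 0.074 in MM1R and 0.086 in MM1S by edgeR, and with the replicate block 0.0045 and 0.0056. Without the block, the MM1R value was 0.043 by DESeq2 and 0.041 by edgeR on the MM1R libraries alone. Of 20 alternatives with and without the block, 6 called PRDM1 lower in MM1R and 5 in MM1S. The match to the heat shock motif shown above, which 5.78% of human promoters hold, lies before one of its 2 listed starts. Any part of it in the change with WA was not tested.

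POU2AF1 and POU2F2, which work together at octamer elements, were also below their untreated partner in 6 of 6 pairs. POU2AF1 had 583, 536 and 508 CPM in untreated MM1R and 491, 466 and 448 CPM with WA at passage 4, 6 and 7, and the groups did not overlap. In MM1S it had 649, 477 and 458 CPM untreated and 590, 343 and 395 CPM with WA at passage 16, 22 and 23, so that passage 16 stood above the other passages with and without WA. Its log2 fold changes of -0.21 in MM1R (adjusted p = 0.49) and -0.25 in MM1S (adjusted p = 0.43) by edgeR did not pass the limit. The replicate block gave adjusted p of 0.063 in MM1R and 0.024 in MM1S. POU2F2 stood at -0.47 on the log2 scale in MM1R (adjusted p = 0.21 by edgeR, 0.0051 with the replicate block) and at -0.45 in MM1S (adjusted p = 0.28 by edgeR, 0.012 with the replicate block).

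POU2F2 was the 1 member that separated the lines. Untreated MM1R had 56.5, 43.3 and 37.2 CPM at passage 4, 6 and 7, and untreated MM1S 21.6, 18.3 and 12.4 CPM at passage 16, 22 and 23. With WA the levels were 38.3, 34.3 and 26.3 CPM in MM1R and 17.1, 11.5 and 9.77 CPM in MM1S. All 6 MM1R cultures lay above all 6 MM1S cultures. Within each of the 4 groups the POU2F2 level fell as passage number rose, and MM1R had the lower passage numbers. Line and passage therefore cannot be told apart in this difference. Without WA the log2 difference, MM1R minus MM1S, was 1.39 (SE 0.24, interval 0.88 to 1.91, 2.62-fold) with an adjusted p of 0.0019 by edgeR, and with WA it was 1.37 (SE 0.24, interval 0.85 to 1.89) with an adjusted p of 0.0024. At the limits used for the lines, a log2 difference of at least 1 either way and an adjusted p under 0.01, it was 1 of 9 members called without WA, where 2.97% of all genes were called (1.48% higher), and 1 of 9 with WA, where 3.04% were called (1.63% higher). The first call was lost without untreated passage 23 of MM1S (adjusted p = 0.011), and that with WA without WA passage 22 (0.016) or 23 (0.015) of MM1S or WA passage 4 (0.014) or 6 (0.012) of MM1R. POU2F2 lies at chr19:42590262-42700737 on the minus strand (GRCh37, 15 exons).

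Between the untreated lines the other 8 tested members differed by log2 fold changes from -0.03 (CRBN) to 0.40 (IKZF3), all short of the limits. POU2F2 was also the only member whose CPM did not overlap between untreated lines, against 32.3% of all genes (16.6% higher in MM1R). With WA, POU2F2 and IKZF3 did not overlap, both higher in MM1R, against 29.1% of all genes (14.8% higher in MM1R). IKZF3 exceeded MM1S by 0.57 there (SE 0.18, interval 0.19 to 0.95) with an adjusted p of 0.054 by edgeR. IRF4 differed between the untreated lines by 0.12 (interval -0.26 to 0.50) and MYC by 0.15 (interval -0.85 to 1.15), and that of IRF4 became -0.03 without untreated passage 16 of MM1S.

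IKZF1 and IKZF3, the drug-induced substrates of cereblon, had fitted changes of opposite sign with WA. IKZF1 had 237, 203 and 171 CPM in untreated MM1R and 235, 257 and 294 CPM with WA at passage 4, 6 and 7. In MM1S it had 202, 212 and 208 CPM untreated and 210, 239 and 293 CPM with WA at passage 16, 22 and 23. It was above its untreated partner in 5 of 6 pairs and at -0.01 on the log2 scale at passage 4 of MM1R, and the groups overlapped in both lines. Its log2 fold changes were 0.37 in MM1R (SE 0.14, adjusted p = 0.11 by edgeR, 0.047 with the replicate block) and 0.25 in MM1S (SE 0.14, adjusted p = 0.30 by edgeR, 0.20 with the replicate block).

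IKZF3 had 274, 235 and 228 CPM in untreated MM1R and 219, 212 and 221 CPM with WA at passage 4, 6 and 7. In MM1S it had 244, 152 and 163 CPM untreated and 180, 117 and 143 CPM with WA at passage 16, 22 and 23, and the groups overlapped there. It lay below its untreated partner in 6 of 6 pairs. The log2 fold changes were -0.18 in MM1R (adjusted p = 0.57 by edgeR, 0.14 with the replicate block) and -0.35 in MM1S (adjusted p = 0.25 by edgeR, 0.012 with the replicate block).

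CRBN, the receptor itself, had the narrowest range of the tested members. Its level lay between 18.3 and 21.0 CPM in all 12 cultures, with group means of 20.2 ± 0.76 CPM (SD, n = 3) in untreated MM1S, 20.5 ± 0.75 with WA, 19.7 ± 0.88 in untreated MM1R and 19.3 ± 1.05 with WA. Its log2 fold change with WA was -0.03 (interval -0.25 to 0.20) in MM1R and 0.03 (interval -0.20 to 0.25) in MM1S. CRBN lies at chr3:3186312-3221411 on the minus strand (GRCh37), and 53.9% of its exon bases are shared with 2 genes of the opposite strand, TRNT1 and RP11-97C16.1. TRNT1 itself had 202 to 318 reads per culture. Without a stated strand setting, reads of CRBN and of these genes cannot be told apart over that stretch.

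No member was called for a difference between the lines in its response to WA. The difference in log2 change, MM1R minus MM1S, ranged from -0.23 (IRF4) to 0.17 (IKZF3), 0 of 9 members were called by edgeR (0% of all genes, with or without the replicate block), and 0 of 9 had an unadjusted p under 0.05, beside 97 of all tested genes. The smallest unadjusted p among the members was 0.37 by edgeR. Those 97 of 14085 genes are fewer than a limit of 0.05 lets through where no gene differs, so the test without the block was conservative. For IRF4 the SE of the difference was 0.248 without and 0.151 with the block. The lack of calls therefore does not show that the lines respond alike. The intervals were wide for IRF4 (-0.76 to 0.31), MYC (-1.44 to 1.38) and BCL6 (-2.12 to 1.75), so that differences of those sizes were not detectable with 3 cultures a group.

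Genes known as direct MYC targets, mostly of ribosome assembly and nucleotide synthesis, were taken from a list of 20, of which 17 could be tested. The others were LDHA, FBL and EIF4A1, whose low entries need care, as given above. In MM1R 8 of the 17 were lower with WA and 0 were higher, where 6.46% of all tested genes were lower, with a median log2 change of -0.45 over the 17. In MM1S 4 were lower and 0 were higher, where 4.23% of all genes were lower, with a median of -0.39. NOP16, a nucleolar protein, had the smallest adjusted p, at -1.10 (SE 0.16) in MM1R with 7e-04 and -1.08 (SE 0.16) in MM1S with 0.00094 by edgeR. CAD, which starts pyrimidine synthesis, fell by 0.74 and 0.66 on the log2 scale (adjusted p of 0.0064 and 0.014), and RRP9, a U3 ribonucleoprotein subunit, by 0.96 and 0.73 (adjusted p of 0.0065 and 0.032). BOP1, named in addition to complete the 4 genes of MM1S, changed by -0.57 there (adjusted p = 0.038). The count in MM1R was 3 without untreated passage 7 or WA passage 4, 4 without untreated or WA passage 6 and 5 without WA passage 7, and that in MM1S was 1 without untreated passage 23 and 2 without untreated passage 22, WA passage 16 or WA passage 22. Over all genes these MM1R fits called 1215, 1297, 950, 1466 and 1074, against 1973 in the main fit. The MM1S fits called 726, 729, 930 and 1507, against 1476. With the replicate block 13 of 17 were lower and 0 were higher in each line, where 14.4% of all genes in MM1R and 11.7% in MM1S were lower. The list was chosen with earlier results of these data known, so these counts are no independent test of MYC activity.

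The same targets were set beside MYC pair by pair. NOP16 went from 88.2 to 30.2 CPM at passage 7 of MM1R, from 68.2 to 35.3 at passage 6 and from 56.2 to 33.3 at passage 4. In MM1S it went from 59.8 to 21.7 CPM at passage 16, from 48.6 to 28.1 at passage 22 and from 47.5 to 23.7 at passage 23. The median log2 change of the 17 genes was -0.59 at passage 7 of MM1R, where MYC was at -3.09, and -0.43 and -0.42 at passages 4 and 6, where MYC was at -0.58 and -0.55. In MM1S the medians were -0.53, -0.29 and -0.37 at passages 16, 22 and 23, where MYC was at -1.35, -0.25 and -2.09. Between 15 and 17 of the 17 genes lay below their untreated partner in each pair.

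MYC acts as a pair with MAX, and MXD and MNT proteins compete with it for MAX and repress the same sites. Of 12 genes of this network other than MYC, 11 were tested, and in MM1R 2 were higher and 2 lower with WA (14.0% of all genes called), while in MM1S 2 were higher and 0 lower (10.5% of all genes called). MXD1 had 26.1, 18.9 and 13.1 CPM in untreated MM1R and 61.1, 63.4 and 126 CPM with WA at passage 4, 6 and 7. In MM1S it had 27.3, 27.1 and 26.6 CPM untreated and 96.4, 62.3 and 126 CPM with WA at passage 16, 22 and 23. Its groups were far apart, and its log2 fold change was 2.10 (SE 0.31, adjusted p = 0.00074 by edgeR) in MM1R and 1.81 (SE 0.31, adjusted p = 0.0021) in MM1S. Its smallest increases, 1.19 at passage 22 of MM1S and 1.21 at passage 4 of MM1R, and its largest, 3.21 at passage 7 of MM1R and 2.22 at passage 23 of MM1S, fell in pairs with small and large MYC decreases. At passage 6 of MM1R and passage 16 of MM1S it rose by the similar amounts of 1.72 and 1.80, where MYC was at -0.55 and -1.35. A link between the MXD1 and MYC changes was not tested. MXI1, of the same family, rose by 0.65 (adjusted p = 0.016) and 0.61 (adjusted p = 0.027). MLX fell by 0.49 in MM1R (adjusted p = 0.0077), and MYCN, named in addition as the other lower gene and with as few as 4 reads in a culture, changed by -1.44 (adjusted p = 0.05 after rounding, just under the limit). MAX itself, named outside the rule, had a log2 fold change of -0.29 in both lines (adjusted p of 0.085 and 0.11). The count of 4 in MM1R became 2 without untreated passage 6, untreated passage 7 or WA passage 6, and that of 2 in MM1S became 1 without any untreated culture or WA passage 16. With the replicate block 2 were higher and 3 lower in each line, where 29.1% of all genes were called in MM1R and 24.1% in MM1S.

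Of 16 plasma-cell genes outside the member list 15 were tested, and in each line 1 was higher and 1 lower with WA, where 14.0% of all genes were called in MM1R and 10.5% in MM1S. PIM2, a survival kinase that myeloma cells rely on, went from 1740, 1870 and 2080 CPM to 1000, 1100 and 786 CPM in MM1R at passage 4, 6 and 7, and from 1750, 1750 and 1910 CPM to 947, 1100 and 900 CPM in MM1S at passage 16, 22 and 23. The groups did not overlap in either line, and it fell by 0.98 in MM1R (SE 0.14, adjusted p = 0.00046 by edgeR) and by 0.88 in MM1S (SE 0.14, adjusted p = 0.0011). SLAMF7, a surface receptor targeted in myeloma, rose by 0.40 (adjusted p = 0.026) and 0.53 (adjusted p = 0.0069), and its MM1R call was lost without untreated passage 6 or 7 or WA passage 6 or 7, with no filter on low counts, and when only the 6 MM1R libraries were fitted. XBP1, the secretory factor, named outside the rule, had log2 fold changes of -0.24 (adjusted p = 0.28) and -0.11 (adjusted p = 0.71). The median of the 15 was -0.02 in MM1R and -0.04 in MM1S. With the replicate block 4 were higher and 2 lower in MM1R (29.1% of all genes called), and 3 higher and 2 lower in MM1S (24.1%).

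Of 20 B-cell genes outside the member list only 12 were tested, since MS4A1 and CD22, among others, had at most 2 reads. With WA 1 was higher and 1 lower in each line, beside 14.0% of all genes called in MM1R and 10.5% in MM1S. TCF3 (E2A), which acts early in B cells, fell by 0.53 in MM1R (adjusted p = 0.0059 by edgeR) and 0.60 in MM1S (adjusted p = 0.0033), and IRF8, a germinal-centre relative of IRF4, rose by 0.67 (adjusted p = 0.021) and 0.70 (adjusted p = 0.020). The IRF8 call was lost in MM1R without untreated passage 6 or 7 or WA passage 4 or 6, and in MM1S without any of the 3 untreated cultures or WA passage 16. The replicate block gave 3 higher and 1 lower in MM1R (29.1% of all genes called) and 3 higher and 3 lower in MM1S (24.1%). Between the lines CD79A, a signalling chain of the B-cell receptor, was higher in MM1R, with 2.22 to 3.64 CPM against 0.103 to 0.259 CPM in untreated cultures and as few as 2 reads in an MM1S culture (log2 fold change 4.13, SE 0.39, adjusted p = 1.9e-05 by edgeR). It passed the filter on low counts only through its MM1R cultures, so that the fold change rests on MM1S values near the floor. CD79A was the 1 gene of the 12 tested called without WA, where 2.97% of all genes were called. With WA, where 3.04% were called, it was joined by CD79B at 1.23 (adjusted p = 0.0060 by edgeR). The count without WA was 2 when untreated passage 16 of MM1S or WA passage 16 or 22 of MM1S was left out and 0 with at least 10 reads required in every library. The count with WA was 1 without WA passage 22 of MM1S or WA passage 6 or 7 of MM1R, and when only the 6 libraries compared were fitted.

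Around cereblon, 16 of 19 listed ligase subunits and substrates were tested, and 1 was lower and 0 were higher with WA in each line, where 14.0% of all genes were called in MM1R and 10.5% in MM1S. ZNF692, a zinc-finger substrate, changed from 64.9 to 39.3 CPM on average in MM1R (log2 fold change -0.73, adjusted p = 0.024 by edgeR) and from 57.9 to 36.3 CPM in MM1S (-0.67, adjusted p = 0.041). The call was lost in MM1R without untreated passage 7 or WA passage 4 or 6, and in MM1S without untreated passage 22 or 23, WA passage 16 or 22 or WA passage 4 of MM1R, and when only the 6 MM1S libraries were fitted. The count in MM1R was 3 without WA passage 16 of MM1S and when only the 6 MM1R libraries were fitted, and 2 without WA passage 22 of MM1S or untreated passage 4 of MM1R. With the replicate block 1 was higher and 3 lower in MM1R (29.1% of all genes called), and 0 were higher and 2 lower in MM1S (24.1%). NEDD8, which activates the ligase, was listed at 0 reads.

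The genes nearest to the called members over the 12 cultures were sought among 12313 genes by the root mean square difference of centred log2 CPM. IRF4 was closest to MYBBP1A (0.169) and CDK5R1 (0.177), where the median gene lay at 0.533. BCL6 was closest to NAP1L3 (0.413) and SESN3 (0.451), with a median of 1.28, and both of these rose with WA, NAP1L3 by 3.41 in MM1R and 3.54 in MM1S and SESN3 by 2.71 and 2.37. POU2F2 was closest to LYL1 (0.166) and TTLL3 (0.183), with a median of 0.82.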

How the data were processed

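RNA from 12 cultures was sequenced, 3 in each of 4 groups given by the sample labels (line and treatment), with passage number as replicate number. The authors checked reads with FastQC 0.11.5, mapped them with STAR 2.7.3a to hg19 and deposited raw counts per gene, with no normalization. The gene models and the strand setting are not given in the sources used here. The authors also deposited counts scaled by DESeq2 size factors, which were not used. The study describes replicates as biologically independent.

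The 10 members and the gene lists were chosen with earlier results of these data known. In R 4.3.3, edgeR 4.0.16 kept genes with filterByExpr (minimum count 10), scaled libraries with TMM and tested all 12 in 1 quasi-likelihood fit, with Benjamini-Hochberg adjustment over 14085 genes. WA was called at an adjusted p of 0.05, MM1R against MM1S at 0.01 with a log2 difference of at least 1 either way. Standard errors are the log2 fold change over the root of F. CPM are TMM-scaled, pair changes use CPM + 0.5, and a gene with at most 3 reads per culture counts as at the floor, which covers counting error only. Besides the 10 members, up to 3 called genes per list and comparison with the smallest adjusted p are named, and the 2 genes nearest to each called member. Some listed genes are not reported here. Coordinates and lengths of the members are from GENCODE on GRCh37.

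The pairing by passage number, taken from the labels, was checked by correlating deviations from group means in cultures that share a passage. Correlations were 0.427 (passage 4), 0.221 (6) and 0.254 (7) in MM1R and 0.744 (16), 0.262 (22) and 0.491 (23) in MM1S, all above 0.1, so that the replicate block was treated as a paired design. In MM1S untreated passage 22 correlated at 0.347 with WA passage 23, and untreated passage 23 at 0.419 with WA passage 22. Both exceed the 0.262 of passage 22 itself, so that the check did not tell passages 22 and 23 apart. In MM1R untreated passage 7 and WA passage 6, which do not match, also passed 0.1 (0.106). Replicates were no copies of each other, their counts differing beyond sampling noise in each pair (chi-square over degrees of freedom 8.06 to 44.3). The alternatives were DESeq2 1.42.0 and its size factors, other filters, fewer libraries, the block, other limits of the call and each library left out. The scripts were tested on simulated data.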

Additional observations from a re-analysis of the deposited data

How the results depend on the processing

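In MM1R, where 2 members were called for WA, 5 were called with no filter on low counts, 6 with passage number as replicate block in edgeR, 5 with the block in DESeq2 and 1 at an adjusted p of 0.01, and between 1 and 3 with a library left out. DESeq2 without the block called 3 there, as did edgeR on the MM1R libraries alone. In MM1S, where 2 were called, the counts were 4 with no filter, 7 and 6 with the replicate block in edgeR and DESeq2, 0 when only the 6 libraries compared were fitted and 0 at an adjusted p of 0.01, and between 0 and 3 with a library left out. Without the filter MYC was among the calls, at an adjusted p of 6e-12 in MM1R and 2.9e-11 in MM1S, against 0.14 and 0.18 with it. The cause was not tested. Of the MYC targets, 11 in MM1R and 8 in MM1S were called with no filter, and 3 and 1 at an adjusted p of 0.01. The calls over all genes moved as well. They were 2344 in MM1R and 1895 in MM1S of 26497 genes with no filter, and 812 and 556 of 14085 at an adjusted p of 0.01. With a library left out they ranged from 950 to 2396 in MM1R, against 1973, and from 726 to 1621 in MM1S, against 1476. The 1 member called between the lines, POU2F2, was 0 to 1 with a library left out, both without and with WA. No member was called for a difference in response under any alternative.

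Differences near 0 changed sign when single libraries were left out, and none of them was called. Without WA the range for MM1R against MM1S was -0.034 to 0.22 for IRF4, -0.055 to 0.21 for POU2AF1, -0.15 to 0.085 for IKZF1 and -0.20 to 0.75 for BCL6. With WA it was -0.26 to 0.087 for IRF4, -0.075 to 0.34 for POU2AF1, -0.20 to 0.73 for MYC, -0.024 to 0.22 for IKZF1 and -0.75 to 0.44 for BCL6. For CRBN the change with WA ranged from -0.059 to 0.029 in MM1R and from -0.004 to 0.053 in MM1S, and was 0.014 in MM1R with at least 10 reads required in every library. The difference in response ranged from -0.34 to 0.59 for MYC, which was 0.006 with that stricter filter, and from -0.86 to 0.36 for BCL6.

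With 3 cultures a group, the intervals of MYC and BCL6 span about 2 and 3 log2 units for a WA effect, and single libraries decided the calls of BCL6 in both lines and of IRF4 in MM1S. PAX5, with at most 3 reads, could not be tested. BCL6 and POU2F2 rest on 14 to 260 and 179 to 1086 reads per culture. The strand setting of the counting limits CRBN, and RNA levels say nothing of the protein levels of IKZF1 and IKZF3.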

Other observations

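Relatives of the member factors were also read out, 14 of 18 listed genes of the IRF, POU2F, IKZF, PRDM and BCL6 families being tested. In MM1R 5 were higher and 1 lower with WA (edgeR, adjusted p under 0.05, 14.0% of all genes called), with a median log2 change of 0.17 over the 14, and in MM1S 3 were higher and 0 lower (10.5% of all genes called), with a median of 0.15. Of the 6 calls in MM1R, the count was 1 when the untreated culture of passage 7 was left out, 2 when that of passage 6 or the WA culture of passage 4 or 7 was, and 3 when the untreated MM1S culture of passage 22 or 23 was. The 3 calls in MM1S became 1 when the untreated culture of passage 22 or 23 or the WA culture of passage 16 was left out. PRDM4, a zinc-finger relative of PRDM1, rose from 34.0 to 60.8 CPM in MM1R (log2 fold change 0.84, SE 0.13, adjusted p = 0.00076) and from 35.4 to 60.5 CPM in MM1S (0.77, SE 0.13, adjusted p = 0.0015), while PRDM1 was lower in 6 of 6 pairs. IKZF2 (Helios) rose from 1.82 to 4.04 CPM in MM1R (1.14, adjusted p = 0.020), and IKZF5 (Pegasus) from 30.9 to 43.1 CPM in MM1S (0.48, adjusted p = 0.029). IRF8 rose in both lines, as given above with the B-cell genes. With passage number as replicate block 6 were higher and 2 lower in each line, where 29.1% of all genes in MM1R and 24.1% in MM1S were called.

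Between the lines, MYCL, a relative of MYC, was lower in MM1R than in MM1S without WA, at 4.23 against 12 CPM (log2 fold change -1.50, SE 0.21, adjusted p = 0.00041 by edgeR), and with WA, at 4.76 against 10.6 CPM (-1.16, adjusted p = 0.0024). MYCN was lower in MM1R with WA, at 0.288 against 1.48 CPM (-2.35, adjusted p = 0.0030), and had as few as 4 reads in a culture. Of the 11 tested genes of the MYC network 1 was called without WA (2.97% of all genes) and 2 with WA (3.04%). With WA these 2 calls of the MYC network became 0 without WA passage 6 of MM1R and when only the 6 libraries compared were fitted, and 1 without WA passage 22 of MM1S or WA passage 4 or 7 of MM1R, or with at least 10 reads required in every library.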
